A study of Mus musculus with 11 samples.

Results

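Lymphoid progenitors read growth and survival signals through a small set of cytokine receptors, and the genes described here encode those receptors and the proteins that carry their signal inward. The set has 8 genes: Il7r, Il2rg, Crlf2, Flt3, Kit, Jak3, Stat5a and Stat5b. Each was represented by the probe set that named exactly 1 gene symbol and had the highest mean over all arrays, which left 6 of the 8, among 22180 genes with such a probe set. Il2rg had no probe set with a symbol of its own and Jak3 shared its only one with Insl3, so neither was analysed here. Each of the other 6 genes had a single such probe set.

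Il7r encodes the alpha chain of the interleukin-7 receptor, which pairs with the common gamma chain (Il2rg) to bind IL-7 and with the chain encoded by Crlf2 to bind TSLP. JAK kinases bound to these chains phosphorylate STAT5, which moves to the nucleus and activates genes of survival and division. Flt3 and Kit are receptor tyrosine kinases, for Flt3 ligand and stem cell factor, that act from multipotent progenitors onwards. Surface IL-7 receptor and Flt3 with low Kit are the usual marks of the common lymphoid progenitor (CLP), the bone marrow cell from which B cells and other lymphocytes arise, and IL-7 and Flt3 signals are both needed for B-cell production in mice.

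Transcripts were measured on 11 microarrays of CLPs sorted from the bone marrow of C57BL/6 mice given PBS or 50 µg of CpG1826 on alternate days for 10 days, with marrow taken on day 10. CpG1826 is a synthetic oligonucleotide that activates Toll-like receptor 9. The CLPs were separated by Ly-6D, a surface protein that appears as they enter the B lineage, which gave 4 groups: Ly-6D+ after PBS (2 arrays), Ly-6D+ after CpG (3), Ly-6D- after PBS (3) and Ly-6D- after CpG (3). The labels name no genetic alteration. The labels give neither the surface gates other than Ly-6D, nor the animals' age, nor whether an array is 1 mouse or a pool, nor whether both populations came from the same mice, so each p-value measures only the spread between these samples, which may be technical. If the sort used surface IL-7 receptor, Flt3 or Kit, cells with little of those proteins were outside the gate in every group, and the part of such a gate in the values below was not tested.

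Values are on the log2 scale after RMA, so a difference of 1 is a doubling. Array medians lay between 3.85 and 3.96. Ly6d itself was higher in the Ly-6D+ arrays by 4.35 after PBS and by 4.85 after CpG, in the direction the sort labels give. Of 10 CLP markers 9 were measured, but the list holds Ly6d, Il7r, Flt3 and Kit. The other 5 (Dntt, Rag2, Cd27, Cd93 and Notch1) had a mean level of 9.83 to 9.86 in Ly-6D- arrays after PBS and 9.26 to 9.52 after CpG, and of 9.73 to 9.79 and 9.61 to 9.72 in Ly-6D+ arrays. Of the 9, Il7r and Rag2 fell with CpG in Ly-6D- cells, where 0.243% of all genes passed as lower. All 9, with the sort marker and the members among them, had an unadjusted p under 0.05 there, against 12% of all genes. The call of Rag2 (-0.75), which encodes part of the antigen receptor recombinase, ended with replicate 1 or 2 of the Ly-6D- CpG group or any of the 3 Ly-6D- PBS arrays left out (limma adjusted p up to 0.117). Detection calls were not used here, so which markers of other cells were absent is not known. Among the Ly-6D- CpG arrays replicate 3 stood nearer to the PBS arrays for several genes below, and results that rest on it are also given without it.

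The promoters of 3 of the 4 measured receptor genes are shown first. They are the 250 bases before the annotated start, 5′ to 3′ on the gene's strand, from RefSeq on GRCm38.p6: Il7r at chr15:9529877-9530126 on the minus strand, Kit at chr5:75574737-75574986 on the plus strand (the first of 2 annotated starts) and Flt3 at chr5:147400490-147400739 on the minus strand. Il7r and Kit are shown because they passed the test below, and Flt3 as a receptor kinase like Kit that did not. Crlf2 did not pass either, and its window, not printed, held a RUNX pattern from 236 to 231 bases before the start.
Il7r promoter: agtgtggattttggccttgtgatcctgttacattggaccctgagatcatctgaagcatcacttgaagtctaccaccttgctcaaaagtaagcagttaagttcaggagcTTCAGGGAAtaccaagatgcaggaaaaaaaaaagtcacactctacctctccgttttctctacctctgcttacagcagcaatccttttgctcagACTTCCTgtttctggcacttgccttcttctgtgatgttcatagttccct
Kit promoter: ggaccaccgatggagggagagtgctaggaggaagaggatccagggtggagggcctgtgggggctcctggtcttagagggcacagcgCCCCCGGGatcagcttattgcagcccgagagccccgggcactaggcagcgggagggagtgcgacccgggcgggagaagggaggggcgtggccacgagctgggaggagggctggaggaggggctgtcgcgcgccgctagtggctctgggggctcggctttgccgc
Flt3 promoter: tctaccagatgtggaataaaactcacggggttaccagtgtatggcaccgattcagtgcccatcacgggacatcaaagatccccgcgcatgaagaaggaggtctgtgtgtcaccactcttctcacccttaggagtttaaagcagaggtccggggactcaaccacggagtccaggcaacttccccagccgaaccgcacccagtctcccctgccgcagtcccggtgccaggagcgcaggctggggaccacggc
Capitals mark matches, on either strand, to 8 short patterns bound by families of blood-cell transcription factors, with the share of 32851 promoters of this length that hold each: AGGAAGT of ETS factors (7.69%), TGTGGT of RUNX factors (14%), AGATAA of GATA factors (9.99%), GTAAACA of FOXO factors (3.17%), TTCNNNGAA of STAT factors (7.02%), the E-boxes CAGCTG (13%) and CAGGTG (17.2%), and CCCNNGGG of EBF1 (11.8%). The Il7r promoter held an ETS pattern from 49 to 43 bases before the start and a STAT pattern from 142 to 134 bases before it. The Kit promoter held an EBF1 pattern from 164 to 157 bases before its start, and none of the 8 patterns lay in the Flt3 window. No match in these 3 windows overlapped another. The windows also differed in base composition, with 44% G and C for Il7r, 70.8% for Kit and 59.2% for Flt3, against a median of 52.4% over all promoters.

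Il7r differed between the populations and was lower after CpG in Ly-6D- CLPs. Its log2 level in Ly-6D+ cells was 10.71 and 10.76 after PBS and 10.70, 10.85 and 10.58 after CpG. Among Ly-6D- arrays it was 10.03, 10.08 and 10.06 after PBS and 9.17, 9.05 and 9.53 after CpG. The order of the groups was thus Ly-6D- after CpG lowest, Ly-6D- after PBS next, and both Ly-6D+ groups highest. The 2 Ly-6D+ groups overlapped with each other, and no other neighbours in that order did.

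After CpG, Il7r fell in Ly-6D- CLPs by 0.81 on the log2 scale, from 10.06 ± 0.026 to 9.25 ± 0.25 (SD, n = 3 each), a level 1.75-fold lower (SE 0.13, limma adjusted p = 0.0300). It was the only one of the 6 members to pass in this comparison, where 0.243% of all genes passed as lower and 0.546% in either direction. In these arrays a smaller share of cells with Il7r and less Il7r RNA per cell cannot be told apart. The difference ran from -0.95 to -0.71 when each array was left out in turn, always lower, but the call was not firm. Among Ly-6D+ arrays, the limma adjusted p was 0.0551 with CpG replicate 1 left out and 0.0530 with either PBS array left out. Among Ly-6D- arrays it was 0.132 and 0.122 with CpG replicates 1 and 2 left out in turn (differences of -0.77 and -0.71), and 0.0798, 0.0989 and 0.0943 for the PBS replicates 1, 2 and 3. With Ly-6D- CpG replicate 3 left out, the highest of its group, the difference was -0.95 (adjusted p = 0.00579). The call also ended with a fit of the Ly-6D- arrays alone (0.133) and when every probe set was tested by itself (0.0953).

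For Ly-6D+ cells the CpG difference of Il7r was -0.029 (SE 0.14, 95% confidence interval -0.34 to 0.28, limma adjusted p = 0.994), with the treated arrays on both sides of the PBS arrays. The CpG effects of the populations differed by 0.78 for Il7r (SE 0.19, lower bound of the interval 0.36). That difference had an unadjusted p of 0.00182 and did not pass (limma adjusted p = 0.583), in a comparison where 0% of genes passed and 6.37% had an unadjusted p under 0.05. Whether Il7r responded differently in the populations was therefore not resolved with this number of arrays.

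Between populations, Il7r was 1.60-fold higher in Ly-6D+ than in Ly-6D- CLPs after PBS (log2 difference 0.68, SE 0.14, limma adjusted p = 0.0365) and 2.76-fold higher after CpG (1.46, SE 0.13, adjusted p = 1.76e-04). Of all genes, 1.18% passed as higher in the Ly-6D+ population with PBS and 1.2% with CpG. The comparison after CpG shares its Ly-6D- arrays with the CpG comparison above. The call after CpG held whichever array was left out (adjusted p up to 0.00162). The call after PBS ended in 7 of 11 cases, while the difference stayed between 0.66 and 0.70. The limma adjusted p was 0.166 and 0.176 when the Ly-6D+ PBS replicates 1 and 2 were dropped in turn, and 0.0994, 0.0917 and 0.0921 for the Ly-6D- PBS replicates 1, 2 and 3. Dropping replicate 1 of the Ly-6D+ CpG group gave 0.0603, and dropping replicate 1 of the Ly-6D- CpG group gave 0.0537. Adjusted over every probe set it was 0.0904.

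**Figure D1:**
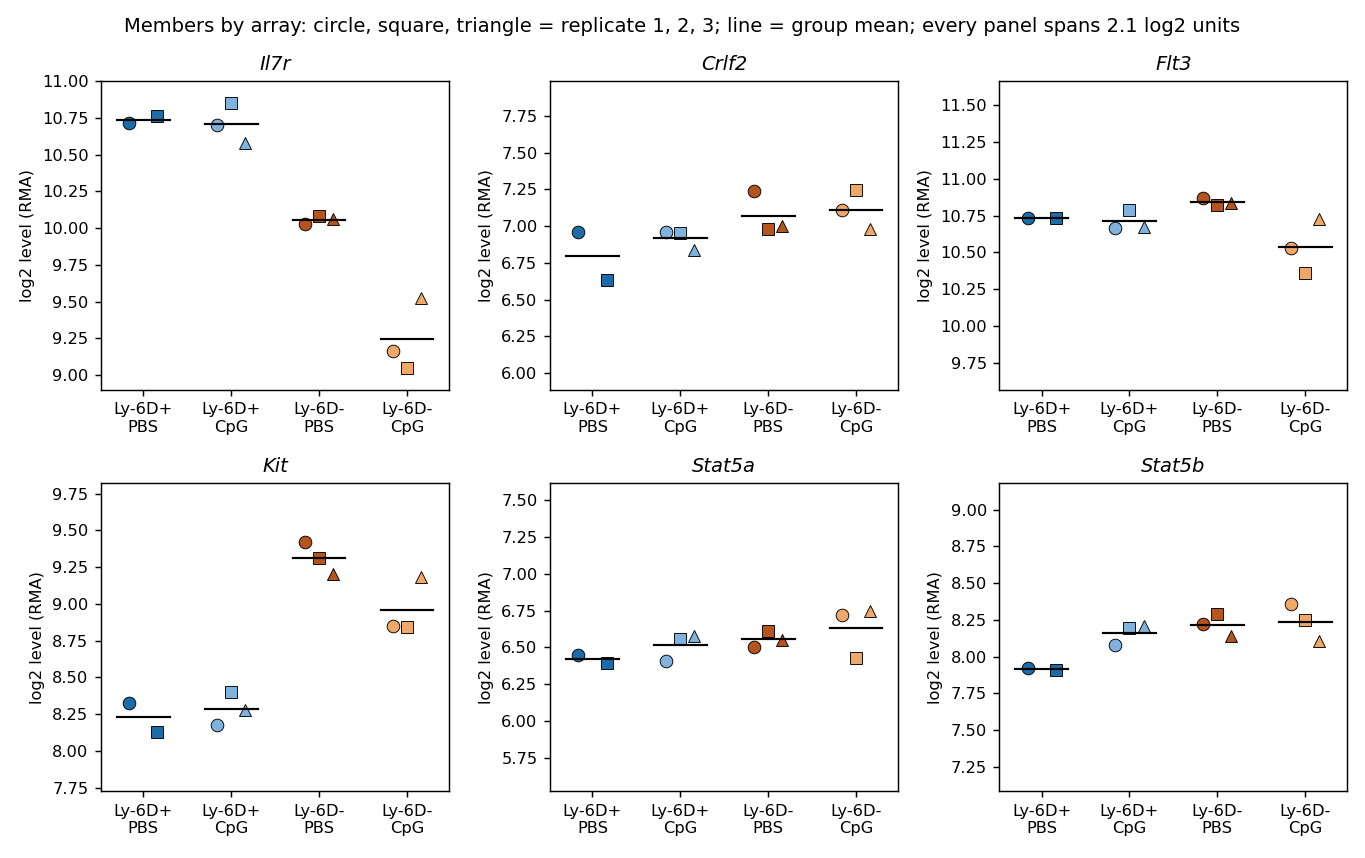
Log2 level of each measured member in every array, by group, with the group mean as a line and the replicate number as the symbol. Il7r is lowest in Ly-6D- CLPs after CpG (9.05 to 9.53) and highest in the Ly-6D+ groups (10.58 to 10.85), Kit runs the other way between populations, and the other 4 genes move over a smaller range.

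Crlf2, the TSLP receptor chain that shares the Il7r product, did not follow Il7r. Its log2 level was 6.96 and 6.63 in Ly-6D+ cells given PBS, 6.96, 6.95 and 6.84 after CpG, 7.24, 6.979 and 6.998 in Ly-6D- CLPs after PBS, and 7.11, 7.24 and 6.979 after CpG. Every Ly-6D- array was above every Ly-6D+ array, though the nearest values were 6.979 and 6.960. The population difference was -0.28 after PBS (SE 0.13, interval -0.57 to 0.019, limma adjusted p = 0.462) and -0.19 after CpG (SE 0.12, interval -0.46 to 0.071, adjusted p = 0.567), and neither passed. The CpG differences were 0.12 in Ly-6D+ CLPs (interval -0.17 to 0.42) and 0.039 in Ly-6D- CLPs (interval -0.23 to 0.30), within the spread between arrays.

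Kit, the stem cell factor receptor, ran opposite to Il7r between the populations. It was at 8.33 and 8.13 in Ly-6D+ CLPs after PBS and at 8.18, 8.40 and 8.28 after CpG. In Ly-6D- CLPs it was at 9.42, 9.31 and 9.20 after PBS and at 8.85, 8.84 and 9.18 after CpG. Kit was 2.12-fold lower in Ly-6D+ than in Ly-6D- CLPs after PBS (8.23 ± 0.14, n = 2, against 9.31 ± 0.11, n = 3, SD, log2 difference -1.08, SE 0.13, limma adjusted p = 0.00210). After CpG it was 1.59-fold lower (-0.67, SE 0.12, adjusted p = 0.0160). Of all genes, 0.798% passed as lower after PBS and 0.938% after CpG, and 1.98% and 2.14% in either direction.

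The call for Kit after PBS held whichever array was left out (limma adjusted p up to 0.0323). The call after CpG ended with replicate 1 of the Ly-6D+ CpG group left out (-0.62, adjusted p = 0.0736) or replicate 3 (-0.67, adjusted p = 0.0551), and when only the CpG arrays were fitted (adjusted p = 0.0720). In Ly-6D- CLPs the CpG arrays of Kit lay below the PBS arrays without overlap, as for 7.2% of all genes, but the nearest values were 9.18 and 9.20. The difference was -0.35 (SE 0.12, interval -0.62 to -0.087) and did not pass (adjusted p = 0.256). With replicate 3 of the treated group left out it was -0.47 (adjusted p = 0.0959). That was the largest fall, as the difference ran from -0.47 to -0.30 with each array left out in turn. Among Ly-6D+ arrays the CpG difference was 0.057 (interval -0.24 to 0.36), and the effects of CpG differed by 0.41 between populations (SE 0.18, adjusted p = 0.783). Across the arrays, Il7r and Kit thus moved in opposite directions with Ly-6D, while in Ly-6D- CLPs both were lower after CpG, Il7r past the test and Kit not.

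**Figure D2:**
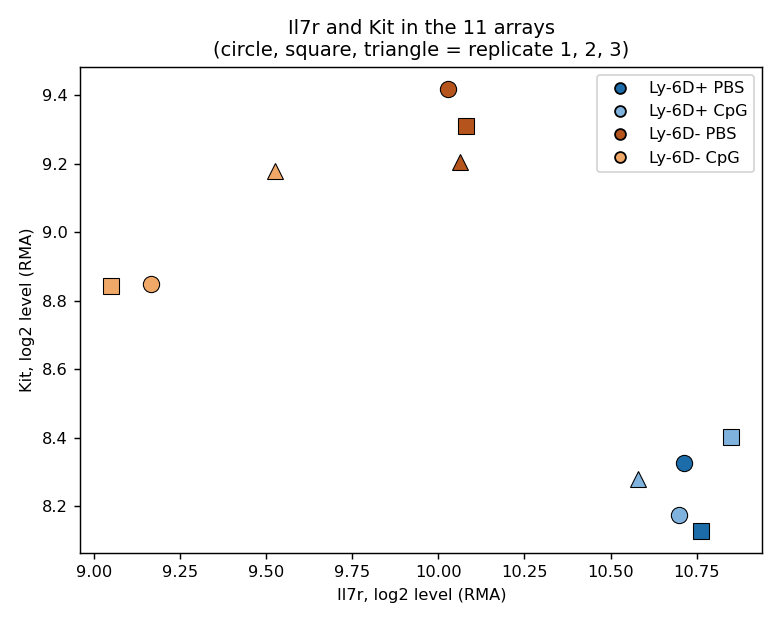
Kit against Il7r, each as its own log2 level, in the 11 arrays, with colour for the group and symbol for the replicate number. The 5 Ly-6D+ arrays lie together at high Il7r (10.58 to 10.85) and low Kit (8.13 to 8.40), the 3 Ly-6D- PBS arrays at Kit of 9.20 or more, and the Ly-6D- CpG arrays to their left, with replicate 3 nearest to the PBS arrays.

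Flt3, the receptor kinase whose ligand supports early lymphoid progenitors, was the receptor with the smallest range. It was at 10.74 on both Ly-6D+ PBS arrays, at 10.67, 10.79 and 10.67 after CpG, at 10.87, 10.82 and 10.84 in Ly-6D- CLPs after PBS and at 10.53, 10.36 and 10.72 after CpG. The Ly-6D- CpG arrays lay below the PBS arrays without overlap, with a difference of -0.31 (SE 0.10, interval -0.53 to -0.081) that did not pass (limma adjusted p = 0.248). Replicate 3 was again the nearest to the PBS arrays, and without it the difference was -0.40 (adjusted p = 0.0901). This too was the largest fall, in a range of -0.40 to -0.22 with each array left out in turn. The differences between populations were -0.11 after PBS (interval -0.36 to 0.14) and 0.17 after CpG (interval -0.053 to 0.40), and that of CpG in Ly-6D+ CLPs was -0.025 (interval -0.28 to 0.23). Neither interval between populations reached beyond -0.36 on the lower or 0.40 on the higher side.

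Stat5a and Stat5b, adjacent genes for close paralogs of the transcription factor that carries the IL-7 signal, changed little. Whether their probe sets cross-hybridise was not tested. Stat5b was at 7.92 and 7.91 in Ly-6D+ CLPs after PBS, at 8.08, 8.20 and 8.21 after CpG, at 8.22, 8.29 and 8.14 in Ly-6D- CLPs after PBS and at 8.36, 8.25 and 8.11 after CpG. The Ly-6D+ PBS arrays were thus below all others. Against them, Stat5b differed by 0.24 after CpG (SE 0.11, interval 0.0097 to 0.48, unadjusted p = 0.0426, limma adjusted p = 0.738), and by -0.30 from Ly-6D- CLPs after PBS (SE 0.11, interval -0.53 to -0.068, adjusted p = 0.245), and neither passed. Both comparisons use the same 2 Ly-6D+ PBS arrays.

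Stat5a was at 6.45 and 6.39 in Ly-6D+ CLPs after PBS, at 6.41, 6.56 and 6.58 after CpG, at 6.50, 6.61 and 6.55 in Ly-6D- CLPs after PBS and at 6.72, 6.43 and 6.75 after CpG. Its group means ran from 6.42 to 6.63, and the groups overlapped in all comparisons but that after PBS. Its differences were 0.096 (interval -0.16 to 0.36) and 0.077 (interval -0.16 to 0.31) for CpG in Ly-6D+ and Ly-6D- CLPs, and none passed (limma adjusted p 0.725 to 0.992 over the 5 comparisons).

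Over the 6 measured members, 0 passed by limma for the effect of CpG on Ly-6D+ CLPs, where 0.0271% of all genes did. There 1 member had an unadjusted p under 0.05 (6.51% of all genes), and 0 passed with a variance trend and robust estimation. For Ly-6D- cells 1 passed, where 0.546% of all genes did. Between the populations 2 passed after PBS (1.98% of all genes) and again after CpG (2.14%), Il7r and Kit both times. An unadjusted p under 0.05 was seen for 3 members with CpG in Ly-6D- cells (12% of all genes). Between populations it was seen for 3 after PBS (11.9%) and 2 after CpG (12.7%). For the difference of CpG effects 0 passed (0% of all genes), with 2 members at an unadjusted p under 0.05 (6.37% of all genes). With a variance trend 0 passed there. The median log2 difference of the members was 0.077 and -0.14 for CpG in the Ly-6D+ and Ly-6D- populations, and -0.21 and -0.096 between populations after PBS and CpG, against -0.0091 to 0.0032 over all genes. The arrays of the compared groups did not overlap for all 6 members between populations after PBS (26.9% of all genes), for 3 after CpG (16.9%), for 3 with CpG in Ly-6D- CLPs (15.7%) and for 1 with CpG in Ly-6D+ CLPs (20.4%).

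**Figure D3:**
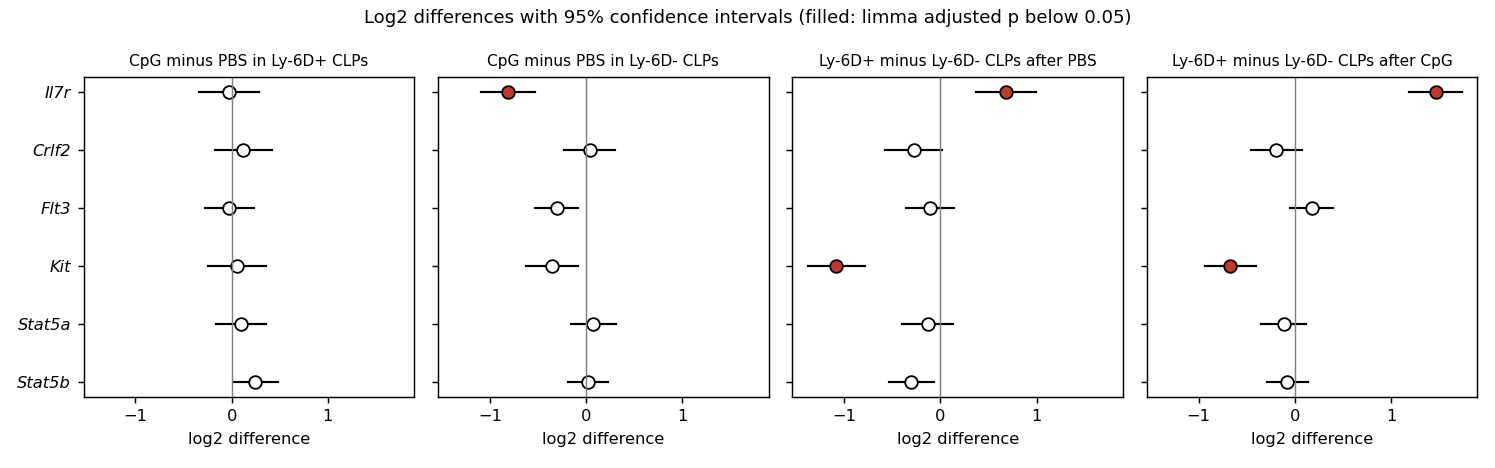
Log2 difference of each measured member in 4 comparisons, with its 95% confidence interval from the limma fit, filled where the adjusted p was below 0.05. Il7r is filled in 3 panels (-0.81, 0.68 and 1.46) and Kit in 2 (-1.08 and -0.67), and all intervals in the panel for CpG in Ly-6D+ CLPs include 0 or end close to it (Stat5b, 0.0097 to 0.48).

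Genes around these receptors were read from 8 lists of ligands, sister receptors, kinases, inhibitors, targets and transcription factors, 95 of whose 104 genes were measured. The lists were chosen with earlier results of these data known, and all genes were not matched to them by level. Their shares beside those of all genes are therefore descriptions and no test of the lists. For CpG, 0 of the 95 passed in either population by limma. In Ly-6D+ CLPs 20 (21.1%) had an unadjusted p under 0.05, against 6.51% of all genes, and 0 passed with a variance trend and robust estimation. In Ly-6D- CLPs 23 (24.2%) did, against 12% of all genes, and 5 passed with a variance trend, where 1.92% of all genes did. With replicate 3 of the Ly-6D- CpG group left out, 6 passed there (Tslp, Stat4, Csf1r, Spi1, Ets1 and Ebf1), in a fit where 1.39% of all genes did, while 0 passed with any other of the 11 arrays left out. With all arrays Csf1r, the macrophage colony-stimulating factor receptor and a relative of Kit and Flt3, had a CpG difference of 1.08 in Ly-6D- CLPs (SE 0.21, limma adjusted p = 0.0524), from 7.61 ± 0.24 to 8.68 ± 0.31 (SD, n = 3 each). Spi1, which encodes the ETS factor PU.1, had 0.47 (adjusted p = 0.156), and Ebf1, a B-lineage factor, had -0.72 (adjusted p = 0.112). Among inhibitors of JAK signalling in Ly-6D+ CLPs, Socs3 had 0.79 (adjusted p = 0.202) and Socs1 0.58 (adjusted p = 0.365).

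Of the 13 genes in the list of STAT5 targets, 0 passed for CpG in either population by limma, with 2 at an unadjusted p under 0.05 in each, where 6.51% and 12% of all genes were. In Ly-6D- CLPs, where Il7r fell, the median of the list was -0.036, over members with differences in both directions. Cish, an inhibitor that STAT5 induces, had -0.78 there (SE 0.34, adjusted p = 0.389) and Bcl6, a repressor of STAT5-driven genes in B cells, 0.46 (SE 0.16, adjusted p = 0.276). Pim2, a survival kinase, had 0.73 in Ly-6D+ CLPs (SE 0.20, adjusted p = 0.444) and -0.20 in Ly-6D- CLPs. Between populations 1 of the 13 passed, Ccnd3, the cyclin D3 of B-cell precursor division. Ccnd3 was higher in Ly-6D+ CLPs by 1.63 after PBS (9.88 ± 0.038, n = 2, against 8.26 ± 0.21, n = 3, SD, limma adjusted p = 3.32e-04) and by 1.04 after CpG (adjusted p = 0.00263), whichever array was left out.

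Between populations, 12 of the 95 pathway genes passed after PBS, 6 higher and 6 lower in Ly-6D+ CLPs (12.6%, against 1.98% of all genes), and 14 after CpG, 8 higher and 6 lower (14.7%, against 2.14%). The lists hold lineage transcription factors whose levels are known to change as CLPs enter the B lineage, and such factors make up 7 of the calls each time. Foxo1, a forkhead factor known to act at Il7r, was at 8.09 ± 0.034 (SD, n = 2) in Ly-6D+ and 6.38 ± 0.22 (SD, n = 3) in Ly-6D- cells after PBS, a difference of 1.70 (SE 0.15, limma adjusted p = 2.25e-04), and differed by 1.17 after CpG (adjusted p = 0.00119). Ebf1 differed by 3.64 and 3.85 and Pax5, the B-lineage commitment factor, by 2.57 and 2.53. These 3 genes passed whichever array was left out.

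Lower in Ly-6D+ CLPs, as Kit was, were Gata2 and Tal1, factors of stem cells and of mast and erythroid cells that are known to act at Kit, by 1.84 and 0.76 on the log2 scale after PBS (adjusted p = 0.00385 and 0.0388) and by 1.08 and 0.68 after CpG (0.0376 and 0.0380). Gata2 lay at 3.64 and 4.08 on the Ly-6D+ PBS arrays, around the array medians. It was not shown to be above background there, so its difference after PBS has no firm size. On the Ly-6D+ CpG arrays Gata2 lay at 4.26 to 5.05 and Tal1 at 4.17 to 4.67. Neither was shown to be above background there. Hoxa9 and Meis1, homeobox factors of early progenitors, were lower after PBS (-0.77 and -0.92). Spi1 was lower after CpG (-0.79, adjusted p = 0.00944) and Ets1 higher (0.74, adjusted p = 0.0475). Leaving out replicate 1 of the Ly-6D+ PBS group ended the calls of Gata2 (limma adjusted p = 0.0606) and Meis1 (0.0611) after PBS, and leaving out its replicate 2 ended that of Hoxa9 (0.0682). With 1 array left out, the call of Tal1 after PBS held for 3 arrays (replicates 1 and 2 of the Ly-6D+ CpG group, and replicate 3 of the Ly-6D- CpG group) and reached 0.270 with others left out. After CpG the Tal1 call held for 2 (replicate 2 of Ly-6D+ CpG, replicate 3 of Ly-6D- PBS) and reached 0.135. That of Gata2 after CpG held for 4 (replicate 3 of Ly-6D+ CpG, both Ly-6D+ PBS arrays, replicate 1 of Ly-6D- CpG) and reached 0.139. The Spi1 call ended with replicate 2 of the Ly-6D- CpG group left out (0.0518), and the Ets1 call held with its replicate 3 left out and ended for each of the other 10 arrays (up to 0.150).

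**Figure D4:**
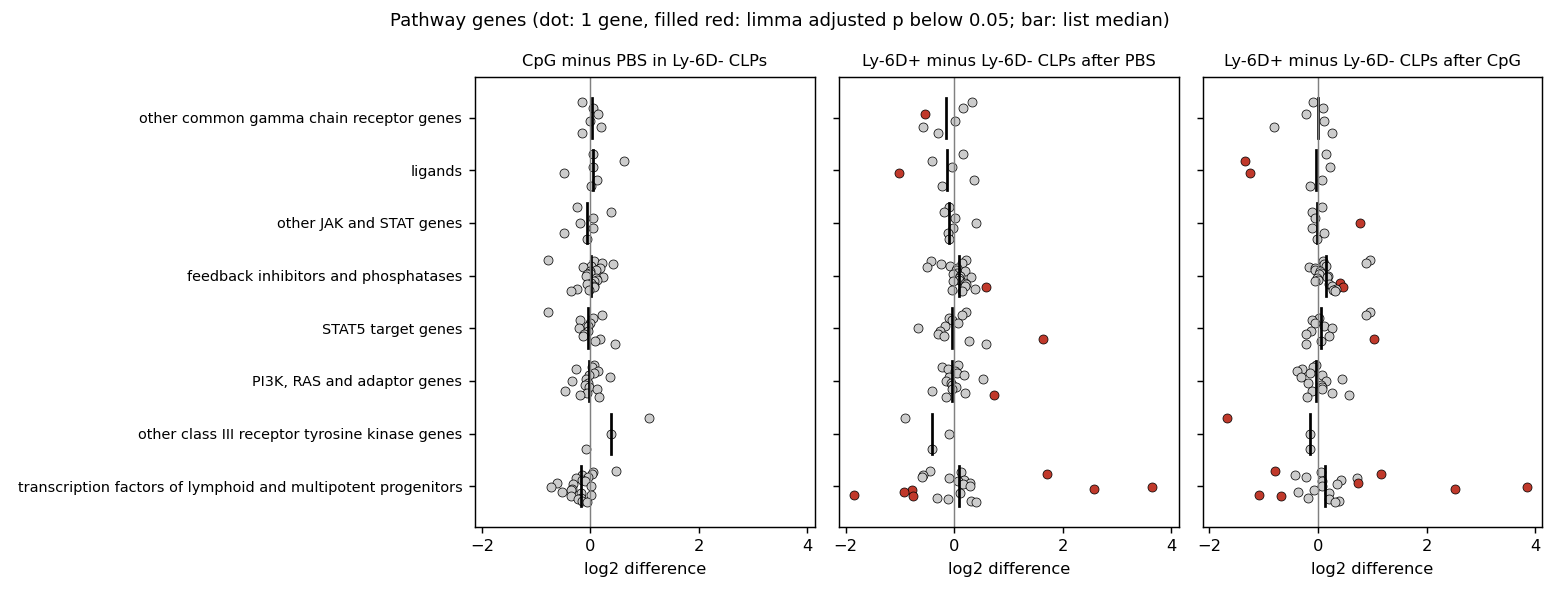
Log2 differences of the measured pathway genes by list in 3 comparisons, with a dot for each gene, red where limma's adjusted p was below 0.05, and a bar at the list's median. No dot is red for CpG in Ly-6D- CLPs. The highest dots between populations are Ebf1 (3.64 after PBS and 3.85 after CpG, with Ly-6D- CpG levels of 4.41 to 5.12). The lowest are Gata2 after PBS (-1.84, with Ly-6D+ levels around the array medians) and Csf1r after CpG (-1.69).

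Of the 3 measured class III receptor kinase genes besides Flt3 and Kit, Csf1r was lower in Ly-6D+ CLPs after CpG (-1.69, limma adjusted p = 0.00154). Of the remaining lists, 1 of 6 sister receptor genes passed, Il4ra, lower by 0.54 in Ly-6D+ CLPs after PBS (limma adjusted p = 0.0328). Of 6 ligand genes, Il15 was lower in the Ly-6D+ population after PBS (-1.01, adjusted p = 0.0211) and with CpG (-1.25, adjusted p = 0.00274), and Tslp after CpG (adjusted p = 0.0482). Tslp lay at 2.70 to 2.92 on the Ly-6D+ CpG arrays, below the array medians, and was not shown to be above background, so its difference has no firm size. Of 7 JAK and STAT genes, Stat2, of interferon signalling, was higher in Ly-6D+ CLPs after CpG (0.77, adjusted p = 0.00920), and of 17 adaptor and kinase genes, Fyn, a SRC-family kinase, was higher after PBS (0.74, adjusted p = 0.0339). Of 23 inhibitors and phosphatases, Cblb, a ubiquitin ligase, was higher both times (0.58 and 0.46, adjusted p = 0.0178 and 0.0314), and Ptprc, the CD45 phosphatase, after CpG (0.40, adjusted p = 0.0281). Of these, Il15 and Stat2 after CpG and Csf1r passed whichever array was left out.

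The other calls of these lists each ended without 1 or more arrays. After PBS, those of Cblb, Il15 and Il4ra ended without either Ly-6D+ PBS array (adjusted p up to 0.114, 0.142 and 0.191) and also without some Ly-6D- PBS arrays, replicates 1 and 2 for Cblb, 1 and 3 for Il15, and any of the 3 for Il4ra. That of Fyn ended when either Ly-6D+ PBS array, replicate 1 of either CpG group, or replicate 2 or 3 of the Ly-6D- PBS group was left out (up to 0.197). After CpG, the call of Ptprc ended without any 1 of the 6 CpG arrays (up to 0.105), that of Cblb ended for all arrays but replicates 2 and 3 of the Ly-6D- PBS group (up to 0.113), and that of Tslp for all but replicate 3 of the Ly-6D- CpG group (up to 0.159).

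Markers of other cells moved with the same groups. The 13 granulocyte and monocyte markers had a mean level of 9.39 to 9.75 in Ly-6D- CLPs after CpG, above the 9.08 to 9.29 after PBS, against 8.37 to 8.91 in the Ly-6D+ arrays, with 2 of 13 lower in Ly-6D+ cells after PBS and 6 after CpG. In that list Ly6c2 (1.09, limma adjusted p = 0.0300) and Ccr2 (1.57, adjusted p = 0.0101), both of monocytes, rose with CpG in Ly-6D- CLPs, 2 of 13. Not all of the list rose there, as Csf3r, Elane, S100a8 and S100a9 had lower means after CpG and the others higher ones. Csf3r lay at 7.75 to 7.78 after PBS and at 6.98 to 7.47 after CpG, a fall that did not pass. The Ccr2 call ended when replicate 2 of the treated group (adjusted p = 0.0637) or replicate 3 of the PBS group (0.0545) was left out. The Ly6c2 call held with replicate 2 or 3 of the Ly-6D+ CpG group or replicate 3 of the Ly-6D- CpG group left out, and ended for each of the other 8 arrays (up to 0.133). Replicate 3 of that group, with the highest Il7r, had the lowest mean of these markers, 9.39. The 8 measured stem cell markers were at 6.00 to 6.22 after CpG and 6.41 to 6.42 after PBS in Ly-6D- CLPs, and at 5.40 to 5.68 in Ly-6D+ arrays, with 6 of 8 lower in Ly-6D+ cells after PBS and 3 after CpG. Among these calls, Mecom (both times) lay at 3.22 to 3.37 in Ly-6D+ arrays, and Procr at 3.59 and 3.97 on the Ly-6D+ PBS arrays. These levels were below or around the array medians and not shown to be above background, so those differences have no firm size. Tek and Slamf1 lay below the array medians in every array. The 8 measured committed B-cell markers were at 5.00 to 5.28 and 5.20 to 5.30 in Ly-6D- CLPs after CpG and PBS, and at 6.09 to 6.19 and 6.69 to 6.73 in Ly-6D+ CLPs, where 3 were higher after CpG and 5 after PBS. Of the 9 measured dendritic cell markers, at 6.26 to 6.43 in Ly-6D- and 6.87 to 7.02 in Ly-6D+ arrays, 3 were higher in Ly-6D+ cells after PBS, and 5 were higher and 1 lower after CpG. The 8 erythroid, megakaryocyte and mast cell markers lay at 4.89 to 5.29 in Ly-6D- and 4.33 to 4.71 in Ly-6D+ arrays, with Cpa3, of mast cells, and Gp9, of megakaryocytes, the 2 lower in Ly-6D+ CLPs after PBS (-2.94 and -1.58) and Cpa3 the 1 after CpG (-1.63). The Gp9 call ended when replicate 1 of the Ly-6D+ PBS group was left out (limma adjusted p = 0.0506). The T-cell list (7 measured, 4.08 to 4.58) had 0 calls by limma in any of the 5 comparisons (1 to 3 genes at an unadjusted p under 0.05 in each), and the NK and innate lymphoid list (7 measured, 3.94 to 4.26) had 1, Gata3, lower in Ly-6D+ CLPs after PBS (-0.58), a call that held in 1 of 11 cases, with replicate 1 of the Ly-6D- PBS group left out (adjusted p up to 0.316 in the others). The part of these markers in the levels of Il7r and Kit was not tested.

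The genes whose pattern over the 11 arrays was most like that of Il7r were sought by the mean absolute difference between the 2 genes after each was set to its own mean, among 18821 named genes. They were Gfra1, a co-receptor for GDNF-family ligands (0.12 on the log2 scale, where Il7r spanned 1.80), Mcoln3, an endolysosomal cation channel (0.14), and Myl10, a myosin light chain (0.14). Like Il7r, Gfra1 was lowest in Ly-6D- CLPs after CpG, at a mean of 5.77, followed by 6.45 after PBS and 7.03 and 7.08 in the Ly-6D+ groups. The genes most like Kit, which spanned 1.29, were Nfe2, a subunit of an erythroid and megakaryocytic transcription factor (0.10), Nynrin (0.10) and Rbpms, an RNA-binding protein (0.12). Nynrin was at means of 5.36 and 5.45 in Ly-6D+ CLPs after PBS and CpG, and at 6.55 and 6.08 in Ly-6D- CLPs. These are descriptions of 11 arrays that share the 4 groups, with no test.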

How the data were processed

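Expression was measured on 11 arrays of sorted bone marrow CLPs, after amplification of a small amount of total RNA, per the labels' protocols. The authors deposited log2 values from RMA, with Partek also named, per the submitters' processing notes. No version or setting is given in the sources used. RMA normalises quantiles across arrays, so a change shared by most genes cannot be seen. The number of arrays limits the precision.

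Of 41345 probe sets, 23521 named exactly 1 gene symbol in the supplied platform table and gave 22180 genes, represented as stated above. All were fitted together by limma 3.58.1 (R 4.3.3, lmFit then eBayes, 4 group means, 7 residual and 3.48 prior degrees of freedom), with 5 comparisons: CpG minus PBS in each population, Ly-6D+ minus Ly-6D- after each treatment, and the difference of the CpG effects. The threshold was an adjusted p below 0.05, by Benjamini-Hochberg over all genes. SE and 95% intervals use the moderated spread. Arrays were taken as independent.

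The members, lists, promoter patterns and the naming rule were chosen with earlier results of these data known. The rule named all members, the pathway genes that passed (or those with the smallest p), and the 3 genes most like each member that passed, passing over predicted and numbered symbols. Marker genes were counted by list. Alternatives were probe sets averaged per gene, every probe set by itself, the dimmest genes left out (the lowest tertile), a variance trend with robust estimation, fits of the compared groups alone, array weights, further quantile normalisation, median centring, the replicate number as a block, and each array left out. For the pathway genes they were added after their values were seen. With 1 Ly-6D+ PBS array left out, the lone array was assumed to vary like the other groups. The fit was tested on simulated data. Promoter sequences were cut to the bases before the start, and matched by symbol for all 6 measured members. Figures were drawn with matplotlib 3.10.9 and pandas 2.3.3 under Python 3.11.15.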

Additional observations from a re-analysis of the deposited data

How the results depend on the processing

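Over 9 other settings and 11 arrays left out in turn, the 5 results of Il7r or Kit that passed kept their direction. These were Il7r for CpG in Ly-6D- CLPs, and both genes between the populations after PBS and after CpG. Of the values of these 5 results, 22 no longer passed (17 of 55 with an array left out, 5 of 45 otherwise). The number of members called was 0 in place of 1 for CpG in Ly-6D- CLPs when only those groups were fitted, and 1 in place of 2 for the populations after CpG when only those groups were fitted. With each array left out it was 0 to 1 for CpG in Ly-6D- CLPs, and 1 to 2 for the populations after PBS and after CpG. The replicate number as a block gave 1 call in place of 2 for the populations after PBS, where the adjusted p of Il7r was 0.0739. Under the block, the Il7r call for CpG in Ly-6D- CLPs had an adjusted p of 0.04998, just past the threshold, and the other calls did not change. The labels do not say what the numbers mark, and they were not taken to pair the arrays. The correlation of deviations from the group means, across genes, was above 0.1 for 2 of 15 pairs of arrays with the same number (-0.034 to 0.18, median 0.036) and 0 of 30 with different numbers (median -0.041), and 8 of 11 arrays correlated best with one of their own number. No alternative fit of the difference between CpG effects to only the compared groups exists, since it uses all 4.

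Values that did not pass changed sign in 17 cases. For CpG in Ly-6D- CLPs, Stat5b was -0.0204 after further quantile normalisation, and ran from -0.040 to 0.085 with an array left out. For the difference of CpG effects, Stat5a was -0.024 with arrays centred on their medians, -0.011 with the replicate block, and between -0.084 and 0.078 with an array left out, and Crlf2 between -0.081 and 0.25. With an array left out, the CpG difference in Ly-6D+ CLPs ran from -0.042 to 0.29 for Crlf2, -0.10 to 0.037 for Il7r and -0.042 to 0.16 for Kit, and that of Crlf2 in Ly-6D- CLPs from -0.028 to 0.12. The causes were not tested.

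The number of pathway genes called for CpG in Ly-6D- CLPs was 0 by limma, 5 with a variance trend, and 1 (Csf1r) with the dimmest genes left out, array weights, either scaling or the block. Between populations with an array left out, it was at most 12 after PBS, and lower where a lone Ly-6D+ PBS array was left. After CpG it ran from 7 (without Ly-6D- CpG replicate 2) to 14 with an array left out. With a variance trend it was 16 after PBS and 20 after CpG, where 2.98% and 3.27% of all genes passed. With only the compared groups it was 7 and 6. Groups of 2 or 3 arrays and the absence of detection calls limit what can be seen for genes of low signal.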
